A study of Mus musculus with 6 samples.

Results

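A set of 7 transcription factors that direct T helper, regulatory and natural killer T (NKT) lineages was followed across 6 classes of liver lymphocytes: Foxp3, Ikzf2, Gata3, Zbtb16, Bcl6, Maf and Batf. They are among the 32286 genes in the matrices and were chosen by name, not by their values. Immune cells came from mouse livers at day 30 after infection, and each of the 3 libraries holds a pool of 3 tumor samples. The groups were mock infection, AAV-sgSCR and AAV-sgBaat. AAV is an adeno-associated virus carrying a guide RNA; sgSCR is the control guide and sgBaat is directed at Baat, the enzyme that joins bile acids to amino acids. The design text calls all 3 groups tumor bearing, whereas the title of the mock sample calls its liver native, and the strain, age and sex of the mice are not given in the sources used here. T cells (CD45hi CD3+) and the remaining CD45hi cells were sorted apart before droplet sequencing with antibody tags.

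With 1 library per group no test between groups was possible. Every interval below is a 95% interval for counting error only and leaves out the spread between animals. The 3 tumor samples of a pool cannot be told apart. Intervals of levels and ratios also take each UMI as independent, although 1 cell can give many, so they leave out the spread between cells. Levels are summed molecule counts (unique molecular identifiers, UMIs) per 1000000 gene UMIs of the class, written as CPM. The libraries held 6431 to 9386 barcodes and 32005400 to 62570529 gene UMIs, and 6068 mock, 7332 AAV-sgSCR and 7094 AAV-sgBaat barcodes passed the filters. Barcodes with at least 2 Cd3 UMIs that also carried B cell, macrophage, neutrophil, basophil or plasmacytoid dendritic cell genes made up 14.1% in mock, 34.5% in AAV-sgSCR and 51.5% in AAV-sgBaat, and were left out of the classes. Pairs of libraries shared 10 to 25 barcode sequences as deposited. UMIs of Lyz2, a myeloid gene that T cells lack, remained in the classes and differed between libraries: in CD8 T cells they stood at 3.81 CPM in mock, 46.0 in AAV-sgSCR and 35.6 in AAV-sgBaat.

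Lineage factors of this kind bind DNA and hold a lymphocyte to a fate. Foxp3 defines regulatory T cells, and Ikzf2 (Helios) is expressed by many of them as well as by some innate-like lymphocytes. Gata3 is the factor of T helper 2 cells and is needed in T cell development. Zbtb16 (PLZF) gives NKT cells and some gamma-delta T cells their innate-like program, Bcl6 is the repressor of follicular helper T cells and germinal center B cells, Maf (c-Maf) is used by follicular helper, Th17 and interleukin-17 producing gamma-delta cells, and Batf is an AP-1 factor of activated T cells. NKT cells are abundant in the mouse liver.

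In the RefSeq annotation of GRCm38.p6, the genes lie at chrX:7579676-7595243 (Foxp3), chr1:69531207-69687351 (Ikzf2), chr2:9857078-9887953 (Gata3), chr9:48651797-48836225 (Zbtb16), chr16:23965050-23988866 (Bcl6), chr8:115703253-115706894 (Maf) and chr12:85686720-85709087 (Batf). These spans run over exons and introns. The 3′ counting used here does not tell isoforms apart, and no level is set against that of another gene.

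The classes were set by marker UMIs. CD4 T cells numbered 331 in mock, 127 in AAV-sgSCR and 73 in AAV-sgBaat. The regulatory gate (Cd4 and Foxp3 UMIs) held 14, 7 and 4 barcodes, and the NKT gate (Cd3 genes and Klrb1c, no Cd8b1) held 416, 159 and 80. Gamma-delta T cells numbered 92, 90 and 53, CD8 T cells 424, 1490 and 461, and NK cells 494, 229 and 187, in the same order. Trdc, the delta chain constant gene, stood at 1103 to 1742 CPM in the gamma-delta gate and at most 52.0 in the other 5 classes. Since Trdc set that gate, this difference largely followed from the rule and is no check of the name. The NKT name was only partly borne out. The gate also held barcodes with Ncr1, an NK cell receptor gene, and with Cd8a. Trav11, the alpha chain segment of the invariant NKT receptor, gave 3.37 CPM in mock, 0 in AAV-sgSCR and 3.71 in AAV-sgBaat. How well 3′ counting catches such a segment was not tested, so these low values do not settle the name. Cd8a in that gate stood at 29.1 CPM in mock, 222 in AAV-sgSCR and 315 in AAV-sgBaat, so its make-up differed between libraries. Zbtb16, Maf, Ikzf2 and Gata3 in it are given also without barcodes that had an Ncr1 or Cd8a UMI.

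Foxp3 was found in few barcodes. It had a UMI in 39 of all mock barcodes that passed, 31 of AAV-sgSCR and 17 of AAV-sgBaat. The regulatory gate took every Cd4 barcode with a Foxp3 UMI, so the 0 in the CD4 class was set by that rule. The NKT, gamma-delta, CD8 and NK classes together held 6 Foxp3 UMIs in 1 mock NKT barcode and 1 UMI in an AAV-sgBaat CD8 T cell. T cell barcodes with a Foxp3 UMI and no Cd8b1 UMI, with or without Cd4, numbered 29 in mock, 19 in AAV-sgSCR and 10 in AAV-sgBaat. Of these, 23, 16 and 7 also carried Ikzf2, and 24, 13 and 4 carried Ctla4, an inhibitory receptor of regulatory T cells. Zbtb16 was seen in 1 of the 29 mock barcodes and in none of the others, where 0 of 10 allows a share of up to 30.9%. A gate that did not use Foxp3, CD4 T cells with at least 2 of 6 regulatory markers, held 24 Foxp3 UMIs in mock, 15 in AAV-sgSCR and 5 in AAV-sgBaat. CD4 T cells with none of those markers held 2, 0 and 0.

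Ikzf2 was highest in the regulatory gate, at 1017 CPM in mock (846 to 1213), 923 in AAV-sgSCR (650 to 1272) and 513 in AAV-sgBaat (167 to 1198). The AAV-sgBaat value rests on 5 UMIs in 2 of 4 barcodes, and the 3 intervals overlap. In CD4 T cells with at least 2 of the 6 markers Ikzf2 reached 619, 312 and 541 CPM, against 8.80, 38.6 and 11.5 in those with none. Ranked by the mean of the 3 libraries, the regulatory gate was followed by the NKT gate and gamma-delta T cells, whose ranges overlapped each other, and then by NK, CD4 and CD8 cells, whose ranges overlapped as neighbours. Gamma-delta T cells held 122, 131 and 108 CPM, a narrow range. Background was low in mock: in B cells, which lack Ikzf2, 0.238% of mock barcodes had a UMI at a median of 3453 gene UMIs, against 39.1% of mock gamma-delta T cells at 4858. In AAV-sgSCR 0.397% of B cell barcodes had a UMI, and in AAV-sgBaat 0.988%. Neutrophils held Ikzf2 at 1.22 CPM in AAV-sgSCR and 7.81 in AAV-sgBaat.

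**Figure D1:**
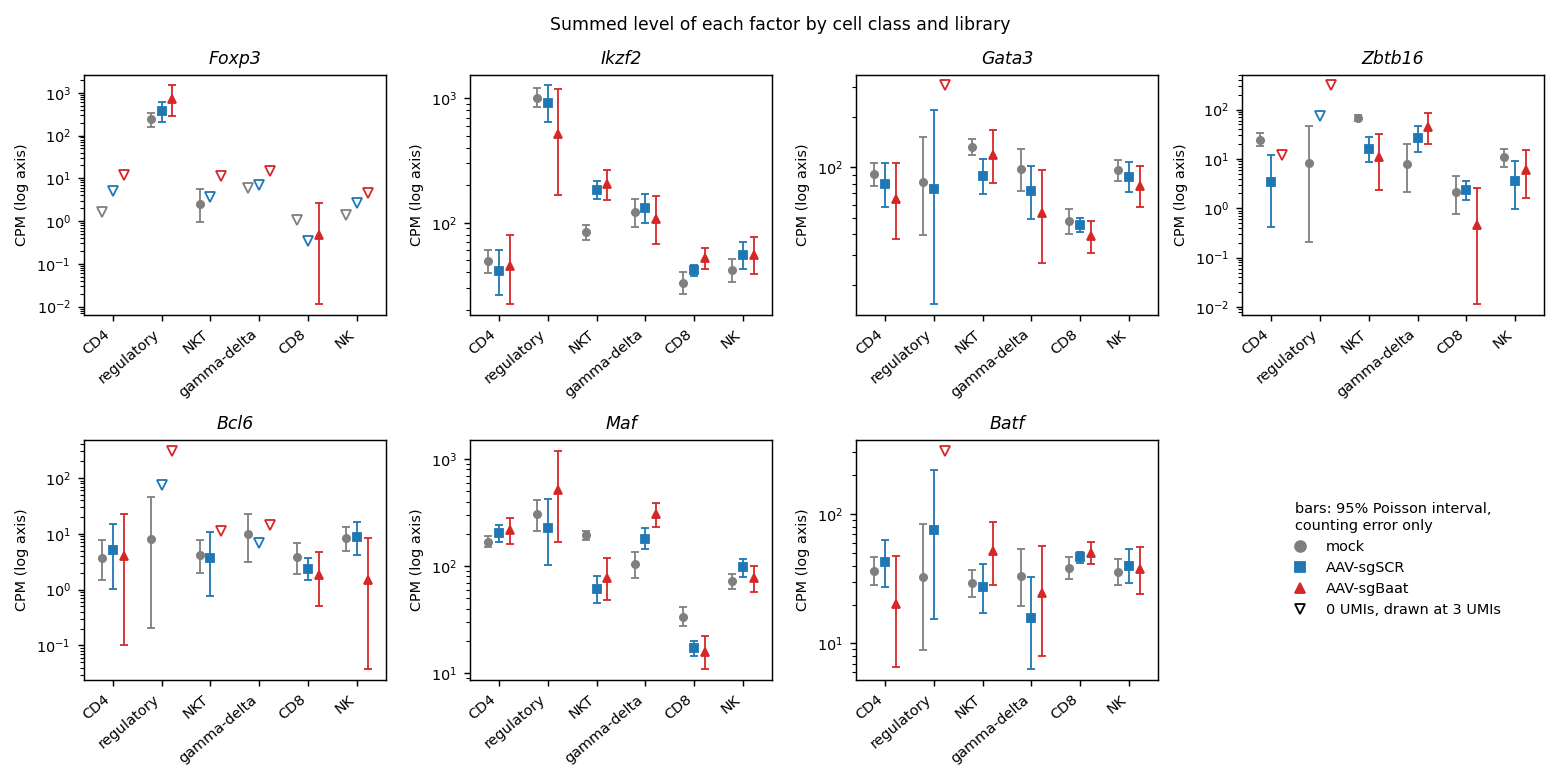
CPM (log axis) of each factor in 6 cell classes, with 1 point per library and 95% Poisson intervals for counting error; open triangles mark sums of 0 drawn at the value of 3 UMIs. Ikzf2 is highest in the regulatory gate, as is Foxp3, which set that gate, and in the NKT gate the mock points of Zbtb16 and Maf lie above those of both AAV libraries while that of Ikzf2 lies below them.

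In the NKT gate Zbtb16 and Maf were lower and Ikzf2 was higher in both AAV libraries than in mock, and these were picked for description after their values were seen. Zbtb16 stood at 67.8 CPM in mock (57.7 to 79.1, from 161 UMIs), 16.1 in AAV-sgSCR (8.58 to 27.6, 13 UMIs) and 11.1 in AAV-sgBaat (2.29 to 32.5, 3 UMIs). Mock was high and both AAV libraries were low, with overlapping intervals between the 2 AAV libraries. Against mock the log2 ratio was -2.07 in AAV-sgSCR (-3.01 to -1.26) and -2.61 in AAV-sgBaat (-4.90 to -1.03). Thinned to 2000 UMIs per cell, 11.8% of 415 mock barcodes had a Zbtb16 UMI, against 3.85% of 156 in AAV-sgSCR and 1.47% of 68 in AAV-sgBaat. Without thinning these shares were 25.5%, 7.55% and 3.75%, and 1, 3 and 12 barcodes were too shallow to thin. In B cells, which lack Zbtb16, 0.136% of mock barcodes had a UMI. T cell barcodes that met no gate numbered 565 in mock, 549 in AAV-sgSCR and 687 in AAV-sgBaat. They held Zbtb16 at 20.5, 19.6 and 7.50 CPM, Maf at 122, 128 and 92.7, and Ikzf2 at 106, 84.0 and 138. There the log2 ratio of Zbtb16 in AAV-sgSCR to mock was -0.07 (-0.64 to 0.50). Of all barcodes with a Zbtb16 UMI, 62.2%, 15.6% and 11.3% lay in the 6 classes.

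Maf had the same direction in the NKT gate, at 194 CPM in mock, 60.8 in AAV-sgSCR and 77.9 in AAV-sgBaat. Its log2 ratio to mock was -1.67 in AAV-sgSCR (-2.13 to -1.25) and -1.31 in AAV-sgBaat (-2.02 to -0.69). Gata3 followed less far, at 133, 89.3 and 119 CPM, with a log2 ratio of -0.58 in AAV-sgSCR (-0.97 to -0.20) and an interval around 0 in AAV-sgBaat (-0.74 to 0.36). Ikzf2 went the other way: it stood at 84.2 in mock, 184 in AAV-sgSCR and 204 in AAV-sgBaat, a log2 ratio of 1.12 (0.81 to 1.44) and 1.28 (0.82 to 1.71). Batf was at 29.5, 27.3 and 51.9, with intervals around 0 in both ratios.

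The composition of the gate moved with these values. Without barcodes that had an Ncr1 or Cd8a UMI, 283 mock, 63 AAV-sgSCR and 40 AAV-sgBaat barcodes remained, and the log2 ratios of AAV-sgSCR to mock were -1.29 for Zbtb16 (-2.27 to -0.44), -0.91 for Maf (-1.42 to -0.43) and 0.92 for Ikzf2 (0.36 to 1.45). For AAV-sgBaat they were -2.71 for Zbtb16 (-5.77 to -0.83, on 2 UMIs), -1.03 for Maf (-1.86 to -0.32) and 0.97 for Ikzf2 (0.18 to 1.68). Apart from Zbtb16 in AAV-sgBaat, at -2.71 against -2.61, these are smaller than in the whole gate, and each of the 6 intervals lies on 1 side of 0. Gata3 in the barcodes that remained stood at 149 CPM in mock, 122 in AAV-sgSCR and 161 in AAV-sgBaat. Its log2 ratio of AAV-sgSCR to mock was -0.29 there, with an interval that holds 0 (-0.82 to 0.20). Among Ikzf2-positive NKT barcodes, Cd8a was found in 17.0% in mock, 60.0% in AAV-sgSCR and 48.4% in AAV-sgBaat. Among Ikzf2-negative ones it was found in 1.90%, 28.3% and 24.5%. Within mock, Zbtb16 was at 87.7 CPM in the 298 NKT barcodes without Ncr1 and at 15.3 in the 118 with Ncr1. Of the 106 mock NKT barcodes with Zbtb16, 90.6% carried Cxcr6, a liver homing receptor of NKT cells, and 8.49% carried Ncr1, against 71.9% and 35.2% of those without Zbtb16. By the CD90 antibody tag, described below, CD90.1-dominant barcodes were 0.24% of the NKT gate in mock, 17.0% in AAV-sgSCR and 8.75% in AAV-sgBaat. Lyz2 stood at 8.85, 43.4 and 44.5 CPM in that gate. The part of either in these differences was not tested.

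**Figure D2:**
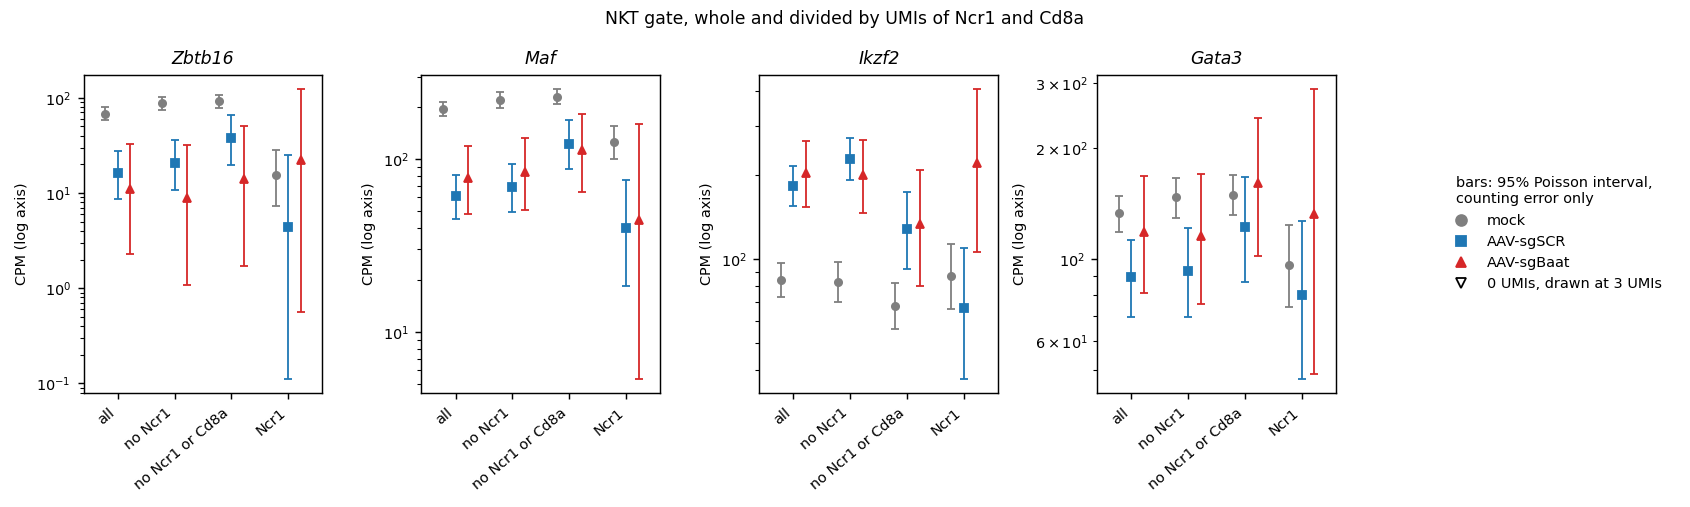
CPM (log axis) of Zbtb16, Maf, Ikzf2 and Gata3 in the NKT gate as a whole, without Ncr1 UMIs, without Ncr1 or Cd8a UMIs, and with Ncr1 UMIs; 1 point per library with 95% Poisson intervals. For Zbtb16 and Maf the mock point is above both AAV points in the first 3 divisions, and for Ikzf2 it is below them.

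Of the 12 NKT genes, 9 had enough UMIs in the NKT gate and none was 2-fold higher or lower in either AAV library than in mock; Cxcr6 was at 452, 285 and 286 CPM. Among 24 of 27 partner and related factors, 2 were at least 2-fold higher in AAV-sgSCR than in mock (Id3, an inhibitor of E proteins, and Eomes) and 4 lower (Irf4, Junb, Prdm1 and Rora). Junb, an AP-1 subunit that pairs with Batf, stood at 2982, 884 and 1243, and Rora at 110, 28.5 and 14.8. Il4, a cytokine that NKT cells make in quantity, was at 41.3, 9.92 and 14.8. The level of 3 UMIs in this gate is 3.72 CPM in AAV-sgSCR and 11.1 in AAV-sgBaat. The AAV-sgBaat values of Il4 and Rora thus rest on few UMIs. The values of these genes are for the whole gate, with its Ncr1 and Cd8a barcodes. Of all genes in this gate, 3.06% were at least 2-fold higher and 8.14% lower in AAV-sgSCR than in mock, and 4.15% and 8.51% in AAV-sgBaat.

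Zbtb16 showed a like pattern in CD4 T cells, where it was at 24.7 CPM in mock (46 UMIs in 21 of 331 barcodes), 3.39 in AAV-sgSCR (2 UMIs) and 0 in AAV-sgBaat, or at least 2.02-fold lower there than in mock when set to 3 UMIs. The log2 ratio of AAV-sgSCR to mock was -2.87 (-5.95 to -0.93). The 21 mock barcodes stood apart from the other CD4 T cells. Cxcr6 was found in 19 of them and in 12.6% of the other 310, and Il2rb, the shared receptor chain of interleukins 2 and 15, in 20 of them and in 21.6% of the others. None had a Klrb1c UMI, which the NKT gate would have taken.

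In gamma-delta T cells Maf and Zbtb16 were higher in the AAV libraries than in mock. Maf stood at 104 CPM in mock (77.8 to 136), 181 in AAV-sgSCR (143 to 225) and 303 in AAV-sgBaat (233 to 389), and the 3 intervals do not overlap. The log2 ratio was 0.80 for AAV-sgSCR over mock (0.28 to 1.33), 1.55 for AAV-sgBaat over mock (0.99 to 2.10) and 0.75 for AAV-sgBaat over AAV-sgSCR (0.24 to 1.24). The share of barcodes with a Maf UMI was 27.2%, 27.8% and 39.6%, and after thinning 13.2%, 18.6% and 32.6%. Zbtb16 was at 7.84, 27.1 and 44.0, from 4, 12 and 9 UMIs, and the intervals of mock (2.14 to 20.1) and AAV-sgBaat (20.1 to 83.6) meet without overlapping. The shares of barcodes with a Zbtb16 UMI, 3.26% in mock (0.68 to 9.24) and 15.1% in AAV-sgBaat (6.75 to 27.6), have overlapping intervals. Its log2 ratio to mock was 1.79 in AAV-sgSCR (0.07 to 3.88) and 2.49 in AAV-sgBaat (0.65 to 4.64), on sums under the 20 UMIs asked of a counted pair. The others did not share this direction: Gata3 was at 98.0, 72.3 and 53.8, Batf at 33.3, 15.8 and 24.5 and Ikzf2 close to level, each with intervals around 0 in both ratios to mock. By the CD90 antibody tag, described below, CD90.1-dominant barcodes were 0% of this gate in mock, 15.6% in AAV-sgSCR and 15.1% in AAV-sgBaat. The part of this make-up in the differences was not tested.

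Il17a, the cytokine gene of interleukin-17 producing gamma-delta cells, stood at 54.9 CPM in mock, 94.9 in AAV-sgSCR and 230 in AAV-sgBaat, from 28, 42 and 47 UMIs. Maf was found in 3 of 3, 7 of 10 and 6 of 8 barcodes with Zbtb16, against 24.7%, 22.5% and 33.3% of those without it.

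In CD8 T cells Maf was lower in both AAV libraries, at 33.6 CPM in mock, 17.0 in AAV-sgSCR and 15.7 in AAV-sgBaat. The log2 ratio to mock was -0.98 (-1.36 to -0.60) and -1.10 (-1.70 to -0.52). Divided by the CD90 antibody tag, the difference was smaller: within CD90.2-dominant cells Maf was at 26.4, 24.6 and 19.7, with ratios to mock of -0.10 (-0.58 to 0.37) and -0.42 (-1.15 to 0.26). CD90.1-dominant cells were 2.12% of the CD8 gate in mock, 62.8% in AAV-sgSCR and 43.4% in AAV-sgBaat, and 9 such cells held 21 of the 96 Maf UMIs in mock. In AAV-sgBaat the direction also rests on leaving out barcodes with genes of another lineage: with them kept, the ratio turned to 1.07. Macrophages held 140 CPM of Maf in AAV-sgBaat against 42.1 in mock. Gata3 was at 47.9, 45.6 and 38.8 and Batf at 38.5, 46.6 and 49.9 in CD8 T cells, with overlapping neighbours.

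Ikzf2 in CD8 T cells divided by the antibody tag. CD90.1 and CD90.2 are 2 allelic forms of the T cell surface protein Thy1, and the labels do not say which cells carried CD90.1. A barcode was called by the larger of the 2 tags where both summed to at least 100 UMIs. The tag oligos, shown because this division was read from them, are given 5′ to 3′ as deposited in the antibody list:
CD90.1: agtatgggatgcaat
CD90.2: ccgatcagccgttta

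In AAV-sgSCR, Ikzf2 was at 52.8 CPM in 935 CD90.1-dominant CD8 T cells (46.9 to 59.2) and at 23.0 in 541 CD90.2-dominant ones (18.1 to 28.9). In AAV-sgBaat it was at 97.9 in 200 (78.6 to 121) and 18.1 in 251 (11.3 to 27.4). The CD90.1-dominant side was high in both, and within each library the intervals do not overlap; the log2 ratio was 1.2 (0.83 to 1.58) and 2.44 (1.75 to 3.18). Thinned to 2000 UMIs, shares with a UMI were 8.11% against 3.04% in AAV-sgSCR and 14.1% against 2.95% in AAV-sgBaat. Cells with at least 2 UMIs summed over Dntt and Arpp21, genes of immature thymus-stage T cells, were kept apart. They held Ikzf2 at 187 in AAV-sgSCR and 133 in AAV-sgBaat. Of the 91 and 779 such barcodes, 87.9% and 95.9% were CD90.1-dominant. Without any barcode carrying a UMI of either gene, the log2 ratio by tag in AAV-sgBaat was 2.39. In mock only 9 CD8 T cells were CD90.1-dominant, with Ikzf2 at 263 CPM from 10 UMIs against 28.9 in the 412 CD90.2-dominant ones (log2 ratio 3.18, 2.07 to 4.14). The same 9 cells held Maf at 551 against 26.4, Gata3 at 236 against 45.7 and Batf at 158 against 36.7.

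The other factors divided by tag less evenly. Gata3 was higher on the CD90.1-dominant side in AAV-sgSCR, at 51.2 against 35.6 (log2 ratio 0.52, 0.21 to 0.85), and not in AAV-sgBaat, at 37.4 against 39.4 (-0.08, -0.75 to 0.59). Zbtb16 was at 3.26 against 0.92 in AAV-sgSCR, from 18 and 3 UMIs (1.82, 0.04 to 4.23), a direction that turned with mixed-lineage barcodes kept (-0.073), and AAV-sgBaat held 1 UMI in all. Batf was higher on the CD90.1-dominant side in AAV-sgSCR, at 55.9 against 30.1 (log2 ratio 0.89, 0.56 to 1.24), and near equal in AAV-sgBaat, at 50.6 against 46.0 (0.14, -0.46 to 0.73). Maf was lower on that side in AAV-sgSCR, at 12.5 against 24.6 (-0.98, -1.46 to -0.49), and at 11.0 against 19.7 in AAV-sgBaat (-0.84, -2.07 to 0.28). The difference between the 2 libraries in these divisions was not tested. Dntt/Arpp21 barcodes held Gata3 at 97.5 and 80.8 CPM but Maf at 1.5 and 4.49 and Batf at 5.25 and 6.11.

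**Figure D3:**
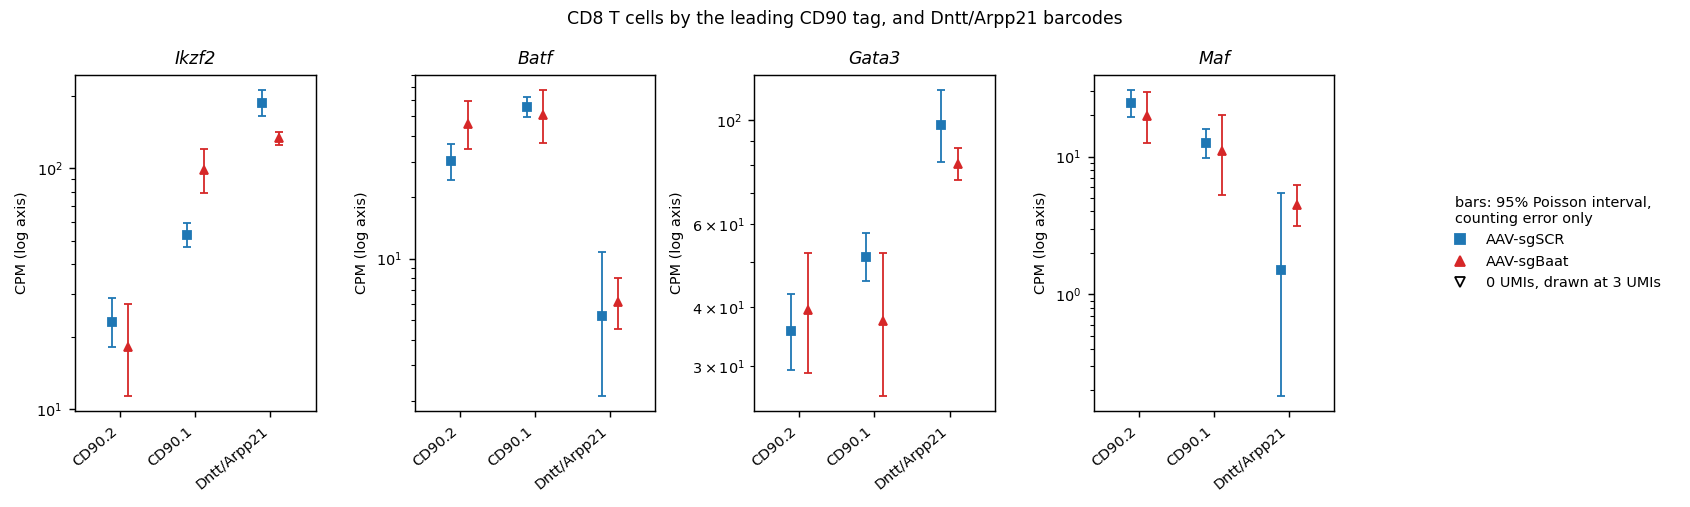
CPM (log axis) of Ikzf2, Batf, Gata3 and Maf in CD90.2-dominant and CD90.1-dominant CD8 T cells and in Dntt/Arpp21 barcodes of the AAV libraries, with 95% Poisson intervals. Ikzf2 is higher in CD90.1-dominant cells in both libraries, and Batf and Maf are lowest in the Dntt/Arpp21 barcodes.

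Levels of some factors differed between 2 parts of the NK gate. The gate was divided by UMIs of 5 Klra genes, the Ly49 receptors of conventional NK cells. A barcode without a Klra UMI may also be one in which none was caught. Ikzf2 stood at 118 CPM in the 106 mock barcodes without a Klra UMI and at 16.8 in the 388 with one, a log2 ratio of 2.81 (2.14 to 3.52). The same ratio was 1.88 in AAV-sgSCR (0.92 to 2.97) and 0.94 in AAV-sgBaat (-0.12 to 2.11). Maf was at 158 against 44.2 in mock, 147 against 34.1 in AAV-sgSCR and 101 against 46.8 in AAV-sgBaat, higher without Klra in each. Gata3 and Batf differed less, with log2 ratios of 0.44 (-0.01 to 0.88) and 0.41 (-0.37 to 1.14) in mock. Barcodes without Klra made up 106 of 494 NK barcodes in mock, 124 of 229 in AAV-sgSCR and 98 of 187 in AAV-sgBaat. In the whole gate Maf was at 72.2, 96.9 and 76.5, so the AAV-sgBaat level stayed near that of mock while its share without Klra was near that of AAV-sgSCR.

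**Figure D4:**
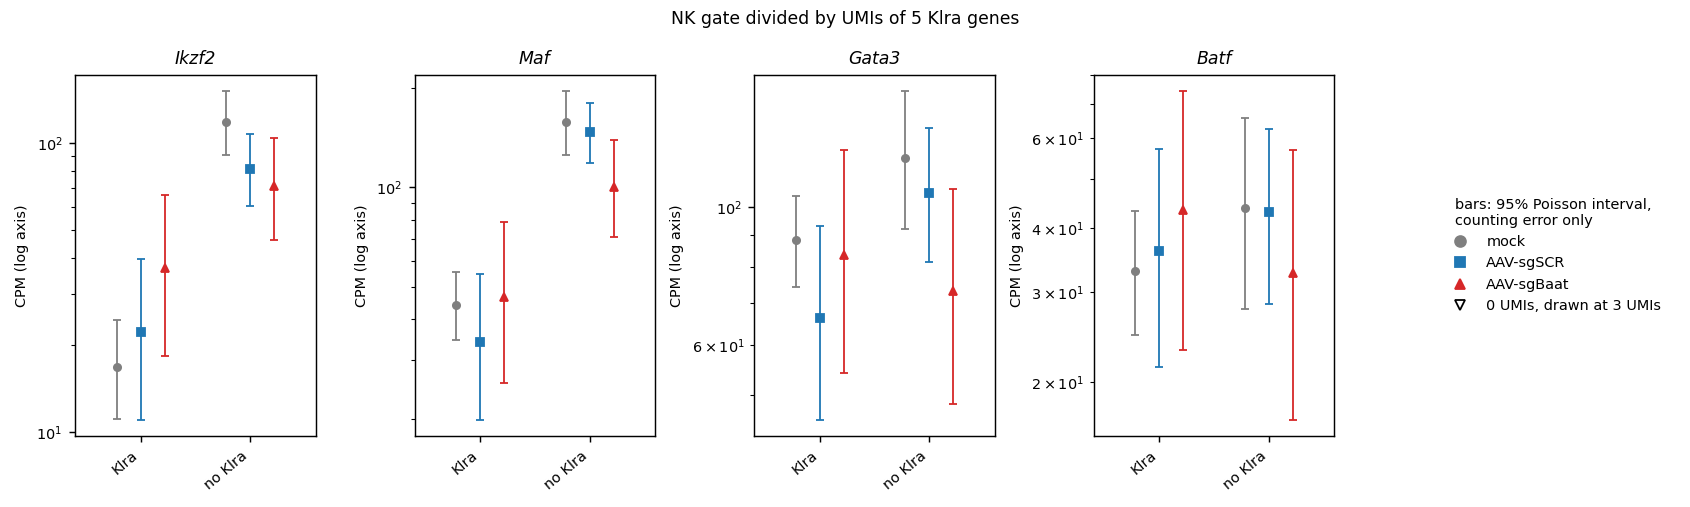
CPM (log axis) of Ikzf2, Maf, Gata3 and Batf in NK barcodes with and without UMIs of 5 Klra genes; 1 point per library with 95% Poisson intervals. Ikzf2 and Maf are higher without Klra UMIs in all 3 libraries.

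Gata3 ranged from 89.3 to 133 CPM in the NKT gate, the highest class by its mean, from 65.1 to 91.2 in CD4 T cells and from 38.8 to 47.9 in CD8 T cells. All neighbours in its order overlapped, while the NKT and CD8 ranges did not. For Batf the class means ran from 45.0 in CD8 T cells to 24.5 in gamma-delta T cells, and all neighbours overlapped. Bcl6 was low in all 6 classes. It had 7, 3 and 1 UMIs in CD4 T cells, 10, 3 and 0 in the NKT gate, 11, 21 and 4 in CD8 T cells (3.85, 2.37 and 1.85 CPM) and 18, 10 and 1 in NK cells (8.44, 8.89 and 1.5 CPM). The mock NK and AAV-sgSCR CD8 values lie above the level of 3 UMIs, which is 1.41 and 0.34 CPM there. In B cells, where it also acts, it stood at 25.6 in mock, 7.86 in AAV-sgSCR and 6.28 in AAV-sgBaat, from 292, 27 and 9 UMIs. A difference of Bcl6 between libraries in T cells was not detectable at this depth.

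For the question of what the Baat guide did beyond the control guide, AAV-sgBaat was set against AAV-sgSCR. A pair of factor and class was counted where the 2 libraries together held at least 20 UMIs, with sums under 3 set to 3, and Foxp3, which set a gate, was left out. Of 23 such pairs, 0 were at least 2-fold higher and 1 was lower, Batf in CD4 T cells. Among all gene and class pairs 2.19% were higher and 5.4% lower. Batf in CD4 T cells was at 42.3 CPM in AAV-sgSCR and 20.4 in AAV-sgBaat, from 25 and 5 UMIs, and its log2 ratio of -1.06 has an interval from -2.80 to 0.35. Among the 23, the 1 ratio whose interval lies wholly above 0 was that of Maf in gamma-delta T cells. The shares of gamma-delta barcodes with a Maf UMI had overlapping intervals in these 2 libraries.

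AAV-sgSCR set against mock gave 28 pairs, of which 1 was at least 2-fold higher (Ikzf2 in the NKT gate) and 5 lower: Zbtb16 in the NKT gate, CD4 T cells and NK cells, Maf in the NKT gate and Batf in gamma-delta T cells. Among all gene and class pairs 6.43% were higher and 7.34% lower. Zbtb16 in NK cells was at 10.8 in mock and 3.55 in AAV-sgSCR, with a log2 ratio of -1.60 (-3.59 to -0.05). Batf in gamma-delta T cells, at 33.3 and 15.8 from 17 and 7 UMIs, had an interval from -2.59 to 0.27. AAV-sgBaat against mock gave 25 pairs, with 2 higher (Ikzf2 in the NKT gate, Maf in gamma-delta T cells) and 4 lower (Zbtb16 and Maf in the NKT gate, Zbtb16 in CD4 T cells, Maf in CD8 T cells); here 5.14% of all pairs were higher and 8.7% lower. Both comparisons use the same mock library.

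**Figure D5:**
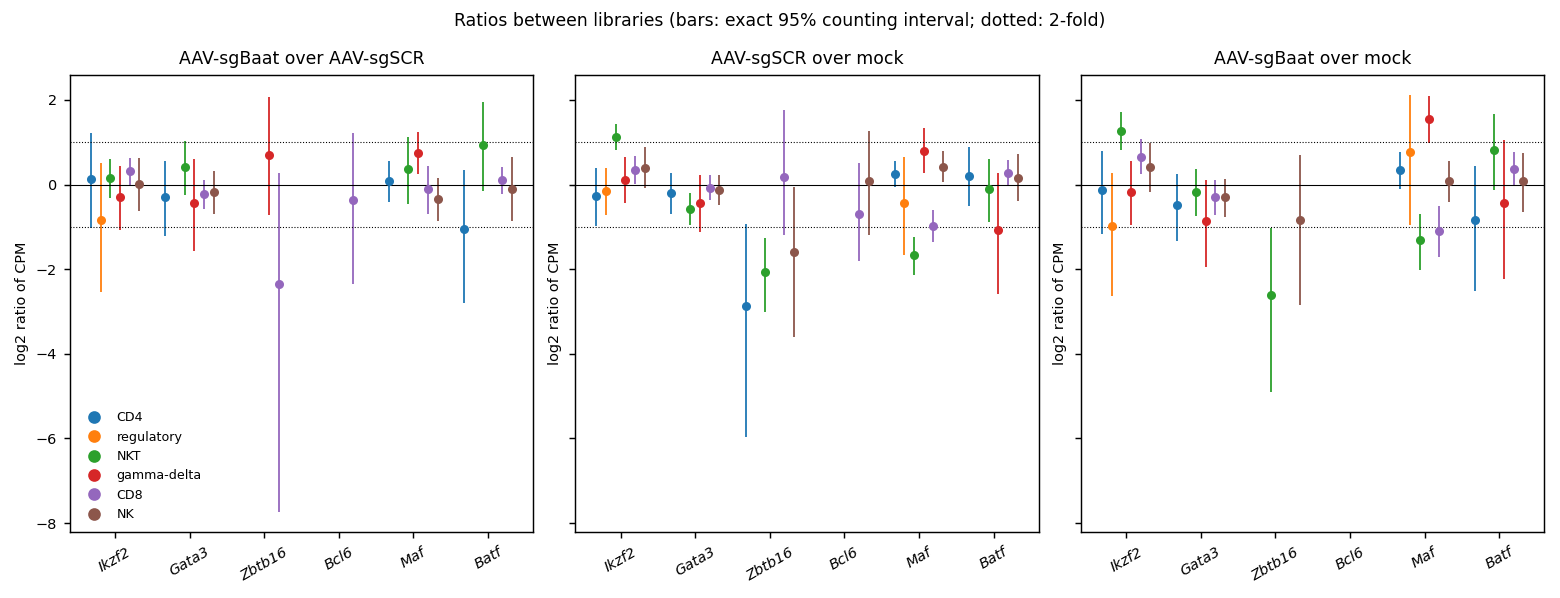
Log2 ratio of CPM between libraries for 6 factors, coloured by cell class, with exact 95% counting intervals; dotted lines mark 2-fold, and pairs under 20 UMIs or with a sum of 0 are not drawn. Most AAV-sgBaat over AAV-sgSCR points lie within 2-fold, and against mock the NKT points of Zbtb16 and Maf are low while that of Ikzf2 is high.

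Genes of the related programs were counted in the same way. In AAV-sgBaat against AAV-sgSCR, where 2.19% of all pairs were higher and 5.4% lower, of 39 pairs of a Th1 gene and a class 0 were higher and 0 lower, and of 31 pairs of a regulatory T cell gene 2 were higher and 10 lower. Of those 10, 6 were in CD8 T cells: Il2ra, Ctla4, Tnfrsf4, Ikzf4, Nrp1 and Tigit, of 11 regulatory genes counted there, with Ctla4 at 79.1 in AAV-sgSCR and 15.3 in AAV-sgBaat. In CD8 T cells 1.61% of all genes were higher and 4.94% lower. CD90.1-dominant cells were 62.8% of that gate in AAV-sgSCR, 43.4% in AAV-sgBaat and 2.12% in mock. Of 11 regulatory genes counted there for AAV-sgSCR against mock, 8 were higher and 1 lower, where 12.9% and 4.50% of all genes were. The part of this make-up in the CD8 values was not tested. Follicular helper genes gave 26 pairs, with 2 higher (Tcf7 in the NKT gate and in CD8 T cells) and 10 lower, among them Pdcd1 in CD8 T cells at 189 and 85.5. Against mock, 6.43% of all pairs were higher and 7.34% lower in AAV-sgSCR, and 5.14% and 8.7% in AAV-sgBaat. Regulatory genes were higher in 20 of 38 pairs in AAV-sgSCR and 13 of 31 in AAV-sgBaat, and lower in 4 and 6. Partner factors were lower in 39 of 125 pairs and 27 of 122, and higher in 8 and 6.

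As a description over the 15 class and library levels with at least 20 cells, the genes whose level on the log2 scale followed each factor most closely were named. For Ikzf2 these were Tcrg-C2 (Pearson r = 0.89), Trgv2 and Klra5, for Zbtb16 Lysmd2 (0.87), Csf2 and Rab4a, and for Maf AI467606 (0.88), Itgb7 and Tnfrsf25. For Gata3 they were Gimap6 (0.90), Rap1gds1 and Jund, for Batf Prdm11 (0.86), Ahi1 and Shld2, and for Bcl6, on 94 UMIs, Ap3d1 (0.91), A930037H05Rik and Tes. They were the highest of 10514 genes, and points of 1 library share its depth and free RNA. Tcrg-C2 was also among the genes that set the gamma-delta gate, so its likeness to Ikzf2 followed in part from that rule. Foxp3 had too few UMIs outside the regulatory gate.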

How the data were processed

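Per the file headers, the authors made the deposited matrices with Cell Ranger 6.0.1, and the submitters' processing notes name the build mm10; the deposited values are raw counts, 1 count per UMI, of genes and of 3 antibody tags. Barcodes with at least 500 genes, 1000 gene UMIs and at most 10% mitochondrial UMIs were kept. Classes were set by marker UMIs with at least 2 Cd3 UMIs, and barcodes with genes of another lineage were left out. Counts were summed per class and library in Python 3.11.15 and scaled to 1000000 (CPM). Intervals are exact Poisson (levels), Clopper-Pearson (shares) and conditional binomial (ratios), all at 95%; the ratio code was tested on simulated data. No test was run, since each group is 1 library. The 3 antibody library samples were not analysed here apart from their tags. Scrublet's own threshold marked 1 barcode in each AAV library and so did not work there; the highest scores were removed as an alternative. The factors, gene lists, panel thresholds and comparisons were chosen with earlier results of these data known. All 7 factors are named in every class; list genes are examples by size.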

Additional observations from a re-analysis of the deposited data

Results flagged for a closer look

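Maf was flagged because its log2 ratio to mock went in opposite directions in different cell classes, with counting intervals on opposite sides of 0. In AAV-sgBaat it was 1.55 in gamma-delta T cells against -1.31 in the NKT gate and -1.10 in CD8 T cells. In AAV-sgSCR it was 0.80 in gamma-delta T cells and 0.42 in NK cells against -1.67 in the NKT gate and -0.98 in CD8 T cells. In CD90.2-dominant CD8 T cells alone, which were 412 of the 424 in mock, AAV-sgBaat gave -0.42 (-1.15 to 0.26) and AAV-sgSCR gave -0.10 (-0.58 to 0.37), and both intervals hold 0. The difference between classes was not tested, and both comparisons share the mock library.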

How the results depend on the processing

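Settings were changed 1 at a time; those on Ncr1, Cd8a, Foxp3 without Cd4 and single Dntt or Arpp21 UMIs were added after seeing the data. The 1 pair past 2-fold between AAV-sgBaat and AAV-sgSCR became 0 with mixed-lineage barcodes kept, with Trav11 as NKT marker or with at least 50 UMIs, 2 with Dntt/Arpp21 barcodes kept or at least 10 UMIs, and 6 at 1.5-fold. The 6 pairs between AAV-sgSCR and mock became 3 with at least 50 UMIs, and the 6 between AAV-sgBaat and mock became 3 with Trav11, 10 with at least 10 UMIs and 13 at 1.5-fold. In the NKT gate, AAV-sgSCR over mock, Ikzf2 moved to 0.74 with mixed barcodes and 1.46 without Ncr1, Zbtb16 to -3.46 with 2 UMIs of each marker and -0.77 with Trav11, and Maf to -1.18 with mixed barcodes, -2.49 with 2 UMIs and -0.91 without Ncr1 or Cd8a; with Trav11, on 32 UMIs, Maf reversed to 1.1. A further 3 values reversed: Batf in gamma-delta T cells (AAV-sgSCR over mock) to 0.082 on 4 UMIs when thinned, Maf in CD8 T cells (AAV-sgBaat over mock) to 1.07 and Zbtb16 by CD90 tag in AAV-sgSCR to -0.073, both with mixed barcodes kept. The cause was not tested. Over 105 results and 17 alternatives, 102 counts and ratios of main interest and 1297 other values stayed close to the main setting. For a ratio this means within its main counting interval, and for a count within 1.5-fold. A further 47 other values moved beyond that interval. A change of sign was called a reversal only where the main ratio was at least 2-fold, so smaller ratios may have changed sign. No paired analysis was possible because each group has 1 library. Depth limits Bcl6, Foxp3 and most AAV-sgBaat values of Zbtb16 to a few UMIs.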
